A study of Homo sapiens with 6 samples.

Results

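Retained-intron transcripts are annotated isoforms of a gene in which sequence that other isoforms splice out stays in the RNA. The ones described here had at least 1 FPKM (fragments per kilobase of transcript, scaled to the mapped fragments of the library) in at least 3 of 6 libraries. This rule found 5395 of the 28258 transcripts that the deposited table types as retained intron (19.1%). They lay in 3062 genes and made up 18.0% of the 29990 transcripts of any type that passed the same limit. Members were thus chosen by their measured levels, and the allele labels did not enter the rule.

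The RNA came from PC9, a human lung adenocarcinoma line with an activating EGFR mutation. FOXM1, which drives transcription of genes for mitosis, was overexpressed from the A allele of rs3742076 in 3 libraries and from the G allele in 3, as the labels state. Cells of both groups received 100 nM gefitinib, an EGFR kinase inhibitor, for 24 h, and poly(A) RNA was sequenced. The design names A against G as the comparison, and the series title links the variant to gefitinib resistance through Wnt signalling. Cells with unchanged FOXM1 or without gefitinib were not analysed here. The labels do not name the vector, the clones or separate cultures, so the p-values rest on differences between libraries that may be technical repeats.

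An intron is normally removed by the spliceosome, which recognises a donor site at its 5′ end and an acceptor site at its 3′ end. RNA that keeps an intron is often held in the nucleus, where it is called detained and may be spliced later, or is destroyed in the cytoplasm because of an early stop codon. Short, GC-rich introns and those of genes for RNA-binding proteins are well known for retention. A retained-intron model in an annotation is often a partial cDNA, and StringTie divides the reads of shared exons among all models of a gene. The tables hold one level per model and no coverage of the intron itself.

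In the comparison of G with A, 2 members passed the test as higher in G (of ERCC3 and ESS2) and 2 as lower (of INTS3 and CDK5RAP3), as did 0.0767% and 0.0700% of all tested transcripts. All 4 had reached the 1 FPKM limit only through the group in which they were high. In level none was called with no filter on low values, and none of the 4 calls was kept without any 1 of the 6 libraries. For 3 of the 4 a whole coding intron lies inside an exon of the model, and 1 such intron each is printed below because it is sequence that the model holds and the spliced mRNA lacks. The sequences come from GENCODE 29 transcripts on GRCh38. Each is in the orientation of the gene with 10 exon bases on either side, and capitals mark the first 6 and the last 3 intron bases.
INTS3 intron 28: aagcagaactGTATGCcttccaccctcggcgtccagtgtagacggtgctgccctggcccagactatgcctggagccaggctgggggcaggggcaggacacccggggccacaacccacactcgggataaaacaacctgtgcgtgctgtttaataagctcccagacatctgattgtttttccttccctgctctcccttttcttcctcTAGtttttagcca
ERCC3 intron 5: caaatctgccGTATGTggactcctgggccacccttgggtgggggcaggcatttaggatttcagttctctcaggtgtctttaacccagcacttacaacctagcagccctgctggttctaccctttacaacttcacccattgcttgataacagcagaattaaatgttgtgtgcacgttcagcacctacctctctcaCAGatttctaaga
CDK5RAP3 intron 7: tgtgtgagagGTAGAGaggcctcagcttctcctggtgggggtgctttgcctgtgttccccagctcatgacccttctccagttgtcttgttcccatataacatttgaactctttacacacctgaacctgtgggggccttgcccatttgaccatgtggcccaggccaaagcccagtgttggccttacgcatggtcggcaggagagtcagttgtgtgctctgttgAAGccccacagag
The INTS3 intron (chr1:153772441-153772638, plus strand) is 198 bases long and is intron 28 of 30 in the coding transcript ENST00000435409. The ERCC3 intron (chr2:127289502-127289688, minus strand) is 187 bases long and is intron 5 of 14 of ENST00000285398. The CDK5RAP3 intron (chr17:47975654-47975868, plus strand) is 215 bases long and is intron 7 of 13 of ENST00000338399. All 3 lie within the coding part, begin with GT and end with AG. The ERCC3 intron has a second annotated acceptor that makes it 169 bases long, and the CDK5RAP3 intron has a second annotated donor that makes it 230 bases long. The CDK5RAP3 model also holds another intron, of 710 bases. The ESS2 model contains no whole coding intron but runs past an annotated donor.

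The ERCC3 transcript ENST00000494464 (1367 bases, 7 exons, chr2:127286749-127294107) was listed at 0.260, 0 and 0 FPKM in A libraries 1 to 3 and at 5.88, 4.83 and 6.67 FPKM in the G libraries. ERCC3 encodes a DNA helicase of transcription factor TFIIH, which opens DNA in transcription and excision repair. All G libraries lay above all A libraries, which was fixed in advance because the model met the 1 FPKM limit through G alone. On the log2(FPKM + 1) scale the difference was 2.64 ± 0.19 (SE) with an adjusted p of 0.0245 (limma-trend, Benjamini-Hochberg over all 29990 transcripts). As a share of the summed FPKM of ERCC3 transcripts it was 0.786%, 0% and 0% in A and 16.0%, 14.6% and 17.6% in G, with an adjusted p of 0.0373 (limma-trend) for the log ratio to the rest of the gene. The gene's own deposited level was 8.499 FPKM ± 1.09 (SD, n = 3) in A and 8.21 FPKM ± 0.532 (SD, n = 3) in G. Most of the gene was assigned to other models that changed places among the A libraries. The nonsense-mediated decay model ENST00000644317 was at 18.0, 0 and 0 FPKM in A and at 18.0, 17.9 and 18.2 FPKM in G.

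ESS2, also known as DGCR14, encodes a nuclear protein associated with the spliceosome. Its retained-intron model ENST00000472073 (2101 bases, 10 exons, chr22:19133968-19144633) was at 0.0645, 0.344 and 0.226 FPKM in A and at 3.91, 4.91 and 4.0 FPKM in G. This model met the 1 FPKM limit through G alone, so its groups could not overlap. The log2 difference was 2.12 ± 0.18 (SE) with an adjusted p of 0.0339 (limma-trend). The other ESS2 transcript that reached the 1 FPKM limit, the coding ENST00000252137, was at 3.54, 3.20 and 3.32 FPKM in A and 1.103, 1.23 and 1.13 FPKM in G. The retained-intron model took 1.67%, 9.12% and 6.29% of the gene in A and 73.4%, 79.1% and 74.2% in G (adjusted p = 0.0444, limma-trend). The coding transcript's level did not pass the test (adjusted p = 0.127), and its share did, with an adjusted p of 0.0373 (limma-trend). Both shares divide the same gene sum, so this is not a result separate from that of the retained-intron model. The deposited gene level was 3.09 FPKM ± 0.109 (SD, n = 3) in A and 2.58 FPKM ± 0.204 (SD, n = 3) in G. The summed transcripts, which the shares divide by, moved the other way. They were at 3.87, 3.77 and 3.59 FPKM in A and at 5.33, 6.21 and 5.39 FPKM in G.

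INTS3 encodes a subunit of the Integrator complex, which cleaves nascent RNA, and also works in a complex that binds single-stranded DNA. Its transcript ENST00000368669 (2889 bases, 9 exons, chr1:153766831-153774079) was at 8.38, 7.89 and 5.12 FPKM in A and at 0.262, 0.408 and 0.419 FPKM in G. The log2 difference was -2.55 ± 0.22 (SE) with an adjusted p of 0.0358 (limma-trend), and the share of the gene went from 23.4%, 19.7% and 18.6% to 0.819%, 1.102% and 1.33% (adjusted p = 0.0373, limma-trend). Other INTS3 models that overlap it held values in the opposite order without passing the test. The retained-intron model ENST00000368670 was at 2.41, 0.0640 and 2.65 FPKM in A and 5.30, 4.86 and 3.14 FPKM in G, and the decay model ENST00000476843 was at 0.118, 0.860 and 1.70 FPKM in A and 4.51, 5.85 and 8.72 FPKM in G. The coding ENST00000435409 was listed at 0 in every library except A replicate 2, at 26.9 FPKM. The deposited INTS3 gene level was 13.4 FPKM ± 2.22 (SD, n = 3) in A and 14.1 FPKM ± 1.54 (SD, n = 3) in G.

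CDK5RAP3 encodes a binding partner of the UFM1 ligase, which modifies proteins at the endoplasmic reticulum. Its model ENST00000580287 (2609 bases, 13 exons, chr17:47971127-47981772) was at 1.98, 2.501 and 2.64 FPKM in A and was listed at 0 in the 3 G libraries. The adjusted p was 0.0401 for the level and 0.0488 for the share (limma-trend), and the share in A was 4.62%, 5.16% and 4.96%. A different retained-intron model of the gene, ENST00000582114, was at 2.96, 3.19 and 2.33 FPKM in A and at 22.3, 10.7 and 19.4 FPKM in G, with an adjusted p of 0.111 (limma-trend). Summed over its transcripts, CDK5RAP3 was at 42.8, 48.5 and 53.3 FPKM in A and at 69.9, 60.0 and 70.4 FPKM in G. Its deposited gene level was lower, 10.7 FPKM ± 1.39 (SD, n = 3) in A and 12.4 FPKM ± 0.0958 (SD, n = 3) in G.

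These 4 were the members called for level and also the 4 called for share. In level, 0.147% of all tested transcripts were called (44 of 29990), against 0.0741% of the members. In share, 0.0935% of 27806 tested transcripts were called, against 0.0743% of the 5384 members that could be tested. Split by direction, 0.0575% of all tested shares were called higher and 0.0360% lower, against 2 members each way (0.0371%). The called members were thus no more frequent than calls among transcripts of all types. In all, 140 members had reached the limit through 1 group alone, 105 through G and 35 through A. In the authors' deposited table, 9 of the 5395 members had a q under 0.05, 2 higher and 7 lower in G. Of all 29990 tested transcripts, 45 were higher and 56 lower in G at the same limit on q. The deposited q was 0.0869 for ERCC3, 0.0621 for ESS2, 0.0111 for INTS3 and 1.59e-05 for CDK5RAP3.

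The members next in rank had groups that did not overlap but missed the threshold, and their values are given without a call. MARCH6 encodes a ubiquitin ligase of the endoplasmic reticulum that regulates sterol synthesis. Its model ENST00000511802 was at 7.09, 4.74 and 5.86 FPKM in A and 17.8, 18.1 and 18.7 FPKM in G (adjusted p = 0.0679, limma-trend), while the full-length coding ENST00000274140 was at 28.7, 26.8 and 29.2 FPKM in A and 18.1, 16.9 and 15.7 FPKM in G. Both of these MARCH6 models had close replicates, whereas in ERCC3 and INTS3 other models of the gene varied among the A libraries. The rule that named ENST00000511802, by small p and groups apart, favours close replicates. JMJD8 encodes a JmjC-domain protein of the endoplasmic reticulum, and its model ENST00000568689 was at 0, 0.407 and 0 FPKM in A and 3.64, 5.11 and 6.39 FPKM in G. YY1 encodes a zinc finger transcription factor, and its single-exon model ENST00000623799 was at 0.0284, 0.194 and 0.221 FPKM in A and 3.34, 3.04 and 1.91 FPKM in G. RPL17 encodes a protein of the large ribosomal subunit, and its model ENST00000581741 was at 3.23, 1.68 and 2.18 FPKM in A and 13.6, 10.5 and 16.4 FPKM in G, 0.658% to 6.60% of the gene.

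Among those lower in G, VMP1, which encodes a membrane protein needed for autophagosome formation, had the smallest p after the calls. Its model ENST00000587470 was at 21.2, 22.7 and 24.2 FPKM in A and at 2.53, 4.75 and 4.68 FPKM in G (adjusted p = 0.0550, limma-trend), or 48.3% to 52.4% of the gene in A and 9.71% to 26.4% in G. VMP1 hosts the microRNA gene MIR21 near its 3′ end. LTBP4 encodes an extracellular protein that binds latent TGF-beta, and its model ENST00000318809 held 46.7%, 46.0% and 45.9% of the gene in A and 0.530%, 6.64% and 0.0850% in G (adjusted p = 0.0791 for share, limma-trend). MLX encodes a partner of glucose-responsive transcription factors. Its model ENST00000590050 was at 3.82, 10.3 and 9.34 FPKM in A and 0.132, 0.118 and 0.0686 FPKM in G, while the coding ENST00000346833 was at 1.34, 2.35 and 0.312 FPKM in A and 10.7, 11.5 and 11.2 FPKM in G. INTS11, the endonuclease of Integrator, had its model ENST00000323275 at 5.65, 2.59 and 4.59 FPKM in A and listed at 0 in G, with an adjusted p of 0.0790 (limma-trend).

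**Figure D1:**
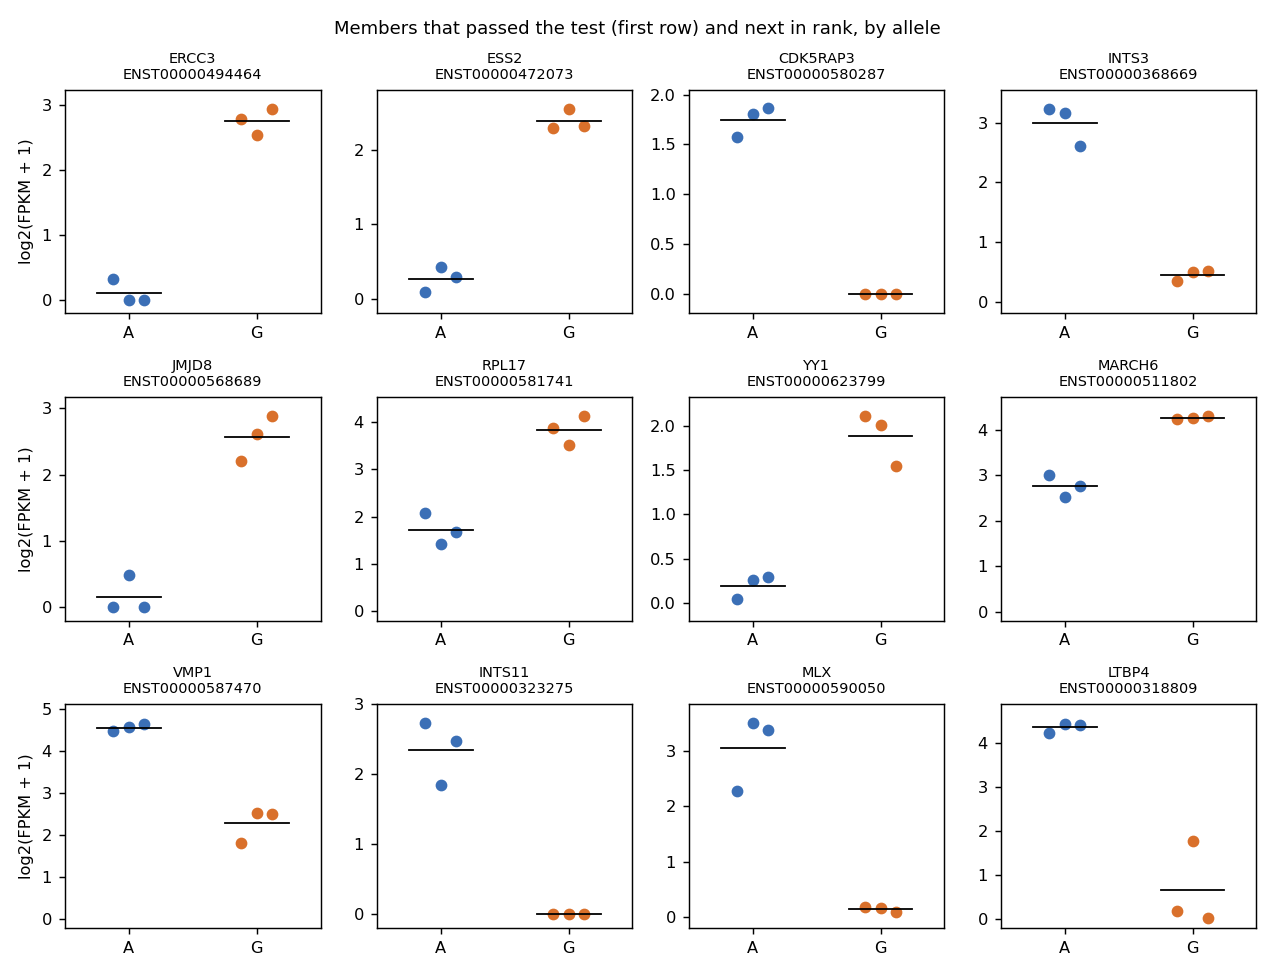
Level of 12 retained-intron transcripts as log2(FPKM + 1) (y axis, own scale per panel) in the 3 A (blue) and 3 G (orange) libraries, with the group mean as a line. The first row holds the 4 that passed the test, and in all 12 panels the groups do not overlap. For those 4 this was fixed, since each met the 1 FPKM limit through 1 group alone. The naming rule required it of the other 8, in level or in share.

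Over the whole library, retained-intron transcripts held more of the summed transcript FPKM in G. The A libraries had 8.53%, 8.74% and 8.62% (mean 8.63 ± 0.108 SD, n = 3) and the G libraries 9.66%, 10.0% and 9.34% (mean 9.68 ± 0.347 SD, n = 3). The lowest G library lay above the highest A library, and the exact two-sided permutation p was 0.1, the smallest that 3 against 3 libraries can give (0.114 after Benjamini-Hochberg adjustment over the 8 classes compared). The difference was 1.04 percentage points, 0.924 with the mitochondrial genome left out, 0.764 for the 5395 members alone and 0.860 without the members above 100 FPKM. Weighting each transcript by its length gave 0.557, and the groups then overlapped, with A replicate 2 at 8.04% and G replicate 3 at 8.03% (exact permutation p = 0.2).

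Other classes moved between the same libraries. Mitochondrial transcripts went from 12.9 ± 0.0323 (SD, n = 3) to 10.7 ± 0.621 (SD, n = 3) percent, processed transcripts, which are noncoding isoforms with no open reading frame, from 3.18 to 3.43 percent and antisense transcripts from 0.625 to 0.688 percent, each without overlap. Protein-coding transcripts went from 77.5 to 76.4 percent and processed pseudogenes from 2.18 to 2.11 percent, both without overlap. Long intergenic noncoding RNA went from 0.67 to 0.70 percent, also without overlap. Only nonsense-mediated decay transcripts, from 2.73 to 2.81 percent, had overlapping groups. Each of the other classes had the same exact permutation p as the retained-intron transcripts, 0.1 (0.114 adjusted). More transcripts reached 1 FPKM in G libraries (29757 to 30721) than in A libraries (28422 to 29134), and for retained-intron transcripts the ranges were 5334 to 5896 and 4845 to 5071. G replicate 2 was the highest in both, and the part of these differences in the retained-intron result was not tested.

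**Figure D2:**
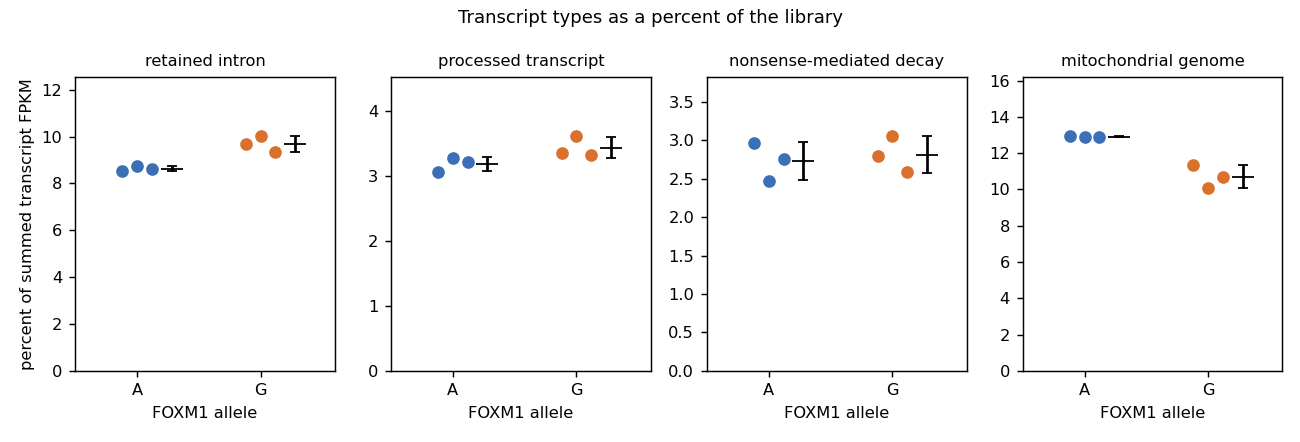
Percent of summed transcript FPKM (y axis from 0) in 4 transcript classes for the 3 A and 3 G libraries, with the mean and SD beside the points. The retained-intron percent is 8.53 to 8.74 in A and 9.34 to 10.0 in G, and mitochondrial transcripts lie the other way.

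By level, the groups separated among the low members. Members with a mean under 2 FPKM (2495 transcripts) summed to 3199, 3122 and 3149 FPKM in A and to 3466, 3861 and 3466 FPKM in G, without overlap. Those from 2 to 5 FPKM summed to 5107 to 5171 FPKM in A and 5173 to 5892 FPKM in G, so the highest A sum nearly equalled the lowest G sum. Those from 5 to 20 FPKM summed to 8547 to 8820 and 8905 to 9718 FPKM, again without overlap. The members include 105 that reached the limit through the G libraries alone and 35 through the A libraries alone. Their part in the separation was not tested, and other low transcripts were not summed. For the 178 members between 20 and 100 FPKM the sums were 6357 to 7068 FPKM in A and 6434 to 6960 FPKM in G, and for the 39 members above 100 FPKM they were 11153 to 12659 and 11722 to 12648 FPKM. In both of these classes the groups overlapped. The 39 most abundant members held 32.9% of the summed level of all members.

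The median member changed by 0.10 in level (log2, G minus A), against 0.03 for all 29990 transcripts, 0.01 for protein-coding, 0.06 for processed and 0.02 for nonsense-mediated decay transcripts. Of the members 60.4% had a positive change, against 53.5% of all tested transcripts. At an unadjusted p under 0.05, 6.25% of members were higher and 2.67% lower in G, where the background was 4.43% and 3.38%. Groups did not overlap for 10.4% of members in the higher direction (background 9.59%) and for 4.19% in the lower direction (background 6.40%). The share of the gene gave a median of 0.08 for members and 0.01 for all tested transcripts, with 58.1% and 50.9% positive. In share, 3.58% of members were higher and 1.67% lower at an unadjusted p under 0.05 (background 2.78% and 2.76%). The share groups did not overlap for 9.12% higher and 4.29% lower (background 6.29% and 5.78%). Without the 140 members that passed the limit through 1 group alone, the median level change was 0.09. It was 0.06 without G replicate 2, against 0.03 for all transcripts without that library.

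**Figure D3:**
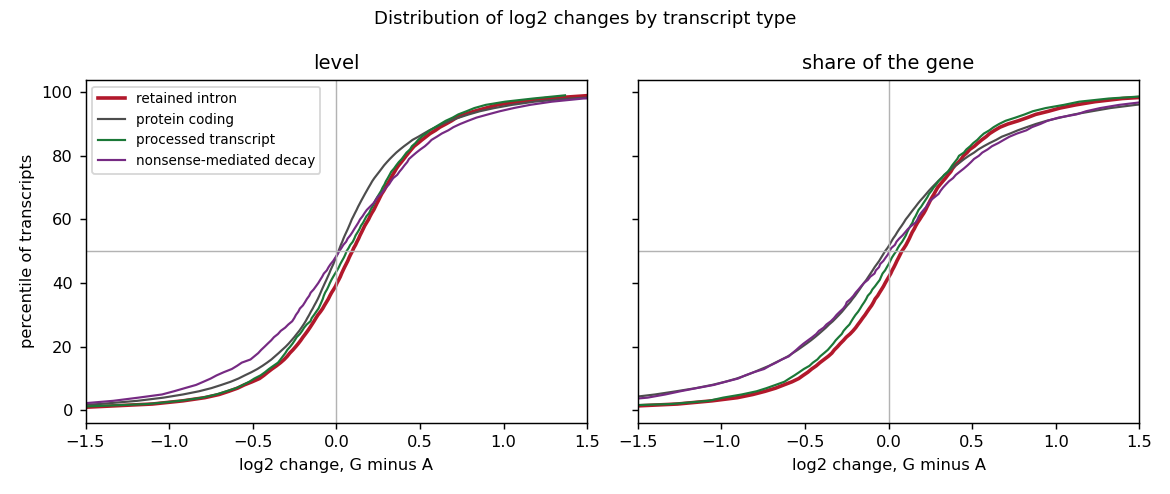
Cumulative distribution of the log2 change, G minus A (x axis), in level (left) and in share of the gene (right) for 4 transcript types, as percentiles of tested transcripts (y axis). The retained-intron curve crosses the middle percentile at 0.10 in level and 0.08 in share, to the right of the other 3 types.

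Summed per gene, all retained-intron transcripts were compared with all other transcripts in 7125 genes, and 0% of genes were called (0 of 7125, limma-trend). At an unadjusted p under 0.05 the summed share was higher in G in 326 genes (4.58%) and lower in 176 (2.47%). Over all 7125 genes the median log2 change of the summed share was 0.036, with 54.1% of genes positive. Without G replicate 2 it was 0.011, with 51.2% positive. Genes that hold a member were chosen by retained-intron level. In the median gene of these, retained-intron models made up 22.1%, 21.2% and 21.8% of the gene in A and 23.8%, 24.8% and 23.9% in G. All G libraries were higher than all A libraries in this median. More members had passed the limit through G alone (105) than through A alone (35), and the part of this choice in the order was not tested. In the median gene of all 7125, which entered by their summed level, the percent was 9.53, 9.33 and 9.86 in A. In G it was 10.5, 11.2 and 10.2. The summed share did not overlap between the groups in 561 genes higher in G (7.87%) and in 406 lower (5.70%).

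As a group the members were short and low. Their median length was 954 bases and their median exon number 4, against 1942 bases and 7 exons in the other tested transcripts. Their median level was 2.16 FPKM, and the median member held 9.0% of its gene, with 180 members at 50% or more. At least 1 FPKM was reached in all 6 libraries by 2573 members and in exactly 3 by 1011. Of the 3062 genes, 1765 held 1 member and 109 held 5 or more. AP1G2, which encodes a subunit of a clathrin adaptor complex, held 13, ACADVL, the mitochondrial very long chain acyl-CoA dehydrogenase, held 12, and ANKZF1, a ribosome quality control factor, GAS5 and SNHG1, both noncoding hosts of small nucleolar RNAs, held 9 each. These models overlap each other and share reads, so they are not independent values. At the limit itself, models of ABCC3, PIF1 and RASGRP2 had the third-highest library at 1.00 FPKM and passed, and those of DDB1, HDAC3 and SEC13 were just under it.

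Of the members, 2108 contained a whole coding intron, and the rest ran past a donor (910), past an acceptor (1654), past both (526) or past no coding intron edge (197). The contained introns numbered 3379 and had a median length of 267 bases and a median GC content of 56.7%. All coding introns of the genes that hold a member had a median of 1157 bases. Only an intron that fits inside an exon of a member could be contained, so this contrast is in part fixed by the definition. The contained introns began with GT and ended with AG in 96.4% of cases. In retained-intron transcripts below the limit, the contained introns had a median of 253 bases and a GC content of 56.4%. The median level change was 0.18 for members that ran past a donor, 0.15 past both edges, 0.10 past an acceptor and 0.05 with a whole intron.

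The change also varied with base composition. In the 1077 members of lowest GC content the median level change was 0.16, in those of highest GC content 0.01, and the 3 classes between lay in order at 0.13, 0.11 and 0.05. The other tested transcripts went the same way, from 0.08 in the lowest to -0.06 in the highest class of GC content. In share of the gene the members' 5 medians were 0.07, 0.11, 0.11, 0.08 and 0.05, without that order. Among members with a whole intron the median was -0.03 where the longest intron was under 120 bases and 0.10 where it was over 780 bases.

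A small number of the contained introns matched the donor of the minor spliceosome, which removes a rare class of introns (U12-type) and is known to do so slowly. The motif TATCCTT at intron bases 2 to 8, read on the transcribed strand, stood in 14 of 3379 introns (0.414%), and in 25 of 8018 (0.312%) of the introns in retained-intron transcripts below the limit. Its 14 hosts were SMYD2, ALG3, GNL3, IFT122, CAPN1, NOP2, SLC8B1, LMBR1L, RPL4, ARL16, EDC4, TEPSIN, UBL5 and CHD4. The donor and acceptor of 5 of them follow, chosen to show the AT-AC and GT-AG kinds. Donors have 3 exon and 14 intron bases with the motif in capitals, and acceptors have 20 intron and 3 exon bases with the last 2 intron bases in capitals.
NOP2 donor: aggaTATCCTTgcaggg
NOP2 acceptor: cagttccttaacaggcccACatg
ARL16 donor: aggaTATCCTTccgcgc
ARL16 acceptor: ggtccttgaccgcttcgcACagg
SMYD2 donor: aataTATCCTTtacaac
SMYD2 acceptor: tttccttgactccacagcACccc
GNL3 donor: aaggTATCCTTtattag
GNL3 acceptor: tcaactatttggaattttAGcgt
RPL4 donor: aacgTATCCTTtgtttc
RPL4 acceptor: attcttgactggaaaaatAGatg
The NOP2, ARL16 and SMYD2 introns begin with AT and end with AC, and the GNL3 and RPL4 introns begin with GT and end with AG. Among the other 9 hosts, the SLC8B1 intron begins with GT and ends with AT. AT-AC ends occurred in 8 of the 3379 introns. The NOP2 intron (chr12:6563515-6563613, minus strand) is intron 7 of 15 of a coding transcript, and the RPL4 intron (chr15:66502751-66503057, minus strand) is intron 3 of 9.

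None of these 14 members was called. NOP2, a ribosomal RNA methyltransferase, had its member at 4.87, 3.49 and 4.49 FPKM in A and 4.09, 2.95 and 5.07 FPKM in G. ARL16, a small GTPase, was at 1.96, 8.33 and 8.27 FPKM in A and 7.96, 7.96 and 5.73 FPKM in G, and SMYD2, a lysine methyltransferase, at 3.16, 3.36 and 5.11 FPKM in A and 5.04, 4.84 and 5.59 FPKM in G. GNL3, the nucleolar protein nucleostemin and a snoRNA host, was at 21.4, 17.6 and 9.19 FPKM in A and 17.0, 21.0 and 12.02 FPKM in G. RPL4 was at 272, 231 and 244 FPKM in A and at 9.20, 220 and 227 FPKM in G, so that G replicate 1 stood far below the other 5 libraries. The RPL4 groups did not overlap (adjusted p = 0.773, limma-trend), and those of NOP2, ARL16, SMYD2 and GNL3 did.

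The member of highest mean level was a model of GAPDH. This gene, the glycolytic dehydrogenase, had its model ENST00000474249 at 3871, 4050 and 3676 FPKM in A and 3277, 4115 and 3947 FPKM in G, with 46.9% to 49.3% of the gene in every library. The coding GAPDH transcript ENST00000229239 stood beside it at 3091 to 3924 FPKM. Enolase ENO1 was at 440 to 527 FPKM in A and 479 to 533 FPKM in G for ENST00000464920, and keratin KRT19 was at 298 to 345 FPKM and 293 to 329 FPKM for ENST00000468880. In these 3 the groups overlapped and none passed the test. The 95% interval of the log2 difference was -0.28 to 0.21 for GAPDH, -0.16 to 0.28 for ENO1 and -0.27 to 0.15 for KRT19.

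Other abundant members varied widely between libraries of the same allele. RPS18, a protein of the small ribosomal subunit, had ENST00000474626 at 917, 209 and 837 FPKM in A and 944, 918 and 835 FPKM in G, while the coding ENST00000439602 was at 1370 FPKM in A replicate 2 and at 292 to 622 FPKM elsewhere. Gamma-actin ACTG1 had ENST00000576209 at 594, 54.3 and 0.0873 FPKM in A and 776, 328 and 11.2 FPKM in G, with the summed gene at 1061 to 1528 FPKM. The coding ENST00000575087 of ACTG1 was at 1309 FPKM in A replicate 3 and at 0 to 2.47 FPKM in the other 5 libraries. The elongation factor EEF1A1 had ENST00000490569 at 1046 FPKM in G replicate 1 and at 1.29 to 7.45 FPKM in the other 5 libraries, and there its main coding model ENST00000331523 was at 0.00163 FPKM against 2519 to 3494 FPKM elsewhere. In the library where the retained-intron model was farthest from the rest, a coding model of the same gene stood apart the other way. A range of 10-fold or more within a group was seen in 15.1% of members and in 23.1% of the other tested transcripts. Across members, Pearson r of log2 levels was 0.736 to 0.760 for libraries of the same allele and 0.733 to 0.748 for libraries of different alleles (a description across 5395 transcripts that are not independent).

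**Figure D4:**
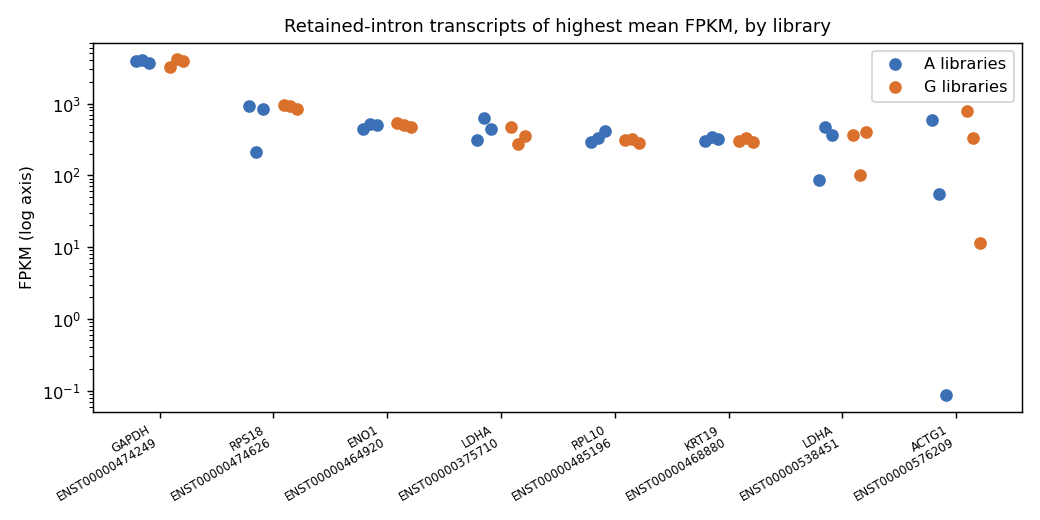
FPKM on a log axis of the 8 retained-intron transcripts of highest mean level in each A (blue) and G (orange) library. GAPDH, ENO1, RPL10 and KRT19 lie close together, while RPS18 has 1 low A library and ACTG1 runs from 0.0873 to 776 FPKM.

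In some genes the retained-intron model was nearly the whole gene. ARGLU1, an arginine- and glutamate-rich protein that modulates splicing, had ENST00000472226 at 39.3, 35.2 and 34.9 FPKM in A and at 42.0, 40.8 and 40.8 FPKM in G, or 91.5% to 96.2% of the gene. It contains intron 2 of 3 (chr13:106557132-106559431, minus strand), which is 2300 bases long with a GC content of 34.8%. The G libraries lay above the A libraries, with an adjusted p of 0.68 (limma-trend). MRFAP1L1, a MORF4-family-associated protein gene, had its single-exon model at 24.1 to 25.5 FPKM and 99.7% to 99.9% of the gene. CIAO2B, a factor of cytosolic iron-sulfur cluster assembly, had ENST00000563490 at 91.7%, 89.6% and 88.9% in A and 63.3%, 90.2% and 58.6% in G, with a decay model at 34.1% and 37.1% in the 2 low libraries.

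Genes of the splicing machinery held many members, as did several other lists, at rates that were not matched for gene level. A member was held by 23.4% of the 13104 genes with a tested transcript, by 22 of 39 tested genes of SR proteins and their kinases (56.4%), 28 of 59 hnRNP and other RNA-binding protein genes (47.5%), 28 of 74 core spliceosome genes (37.8%) and 32 of 46 genes with described detained introns (69.6%). The rate was 75% in ribosomal protein genes, 64.2% in translation factors and tRNA synthetases and 58.5% in snoRNA hosts. It was 58.3% in epithelial and lung lineage genes and 57.1% in hypoxia and glycolysis genes. Lower rates were found in FOXM1 and G2/M targets (26.8%), Wnt genes (19.05%) and EGFR and MAPK genes (16.3%). No member of the splicing and detained-intron lists was called. The 82 members in hnRNP and related genes had a median level change of 0.20, with 60 positive, 16 without overlap higher in G (19.5%) and 0 lower, where all tested transcripts had 9.59% higher and 6.40% lower. The 79 in detained-intron genes had 0.19, with 58 positive, 16 higher without overlap (20.3%) and 1 lower (1.27%), beside the same 9.59% and 6.40%. The 53 in spliceosome genes had 0.13 and the 46 in SR genes 0.09, against 0.10 for all members. The lists share genes, and several members lie in 1 gene.

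DDX17, an RNA helicase that takes part in splicing, had ENST00000216019 at 39.1, 25.2 and 29.6 FPKM in A and 47.0, 49.8 and 47.5 FPKM in G (adjusted p = 0.517, limma-trend), and as a share 14.7% to 20.04% in A and 19.7% to 21.9% in G. The level groups did not overlap and the shares did. HNRNPA2B1 was at 47.9 to 60.7 FPKM in A and 55.1 to 59.6 FPKM in G for ENST00000490912, with overlapping groups. Of genes known for detained introns, 3 were added after their values were seen. OGT, the O-GlcNAc transferase, had ENST00000488174 at 16.8, 11.6 and 13.7 FPKM in A and 20.02, 21.6 and 22.3 FPKM in G, 42.4% to 46.6% and 54.1% to 58.1% of the gene, with an adjusted p of 0.507 (limma-trend). MAT2A, which makes S-adenosylmethionine, had ENST00000481412 at 3.14, 2.78 and 2.87 FPKM in A and 3.97, 4.04 and 3.39 FPKM in G. The splicing kinase CLK1 had ENST00000473565 at 1.43, 3.16 and 3.11 FPKM in A and 23.6, 18.7 and 5.76 FPKM in G (adjusted p = 0.503, limma-trend). None of the 3 passed the test, and their direction adds nothing to the tally of the list, since their values were known when they were added.

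Ribosomal protein genes held 156 members in 60 of 80 tested genes (75%), with a median level change of 0.00, 78 positive, and 5 higher (3.21%) and 10 lower (6.41%) without overlap. The background was 9.59% and 6.40%, so the lower count is at the level of all transcripts. Their median share change was 0.14. Translation factors and tRNA synthetases (105 members) and snoRNA host genes (69 members) both had a median level change of 0.03. None of these members was called.

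FOXM1 itself had no retained-intron transcript above the limit. Its gene level was 25.5, 10.5 and 10.1 FPKM in A and 14.6, 14.3 and 13.97 FPKM in G, and its retained-intron model ENST00000545049 reached 1 FPKM only in A replicate 3 (2.81 FPKM) and G replicate 3 (3.83 FPKM). FOXM1 and G2/M target genes held 24 members in 19 of 71 tested genes (26.8%, against 23.4% of all genes), with a median level change of 0.26 and 19 positive. BUB1, the spindle checkpoint kinase, had ENST00000466333 at 14.4, 14.2 and 15.2 FPKM in A and 18.4, 16.3 and 19.2 FPKM in G (adjusted p = 0.623, limma-trend), and 61.3% to 62.5% of the gene in A and 60.9% to 66.4% in G. The level groups did not overlap and the shares did.

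Wnt pathway components and targets held 29 members in 8 of 42 tested genes (19.05%), with a median of 0.17 and 21 positive. CD44, a surface receptor and Wnt target, had ENST00000527326 at 68.2, 66.4 and 69.9 FPKM in A and 55.2, 59.6 and 10.0 FPKM in G, and CSNK1E, a casein kinase of the pathway, had ENST00000612795 at 48.7, 44.0 and 39.7 FPKM in A and 11.5, 54.7 and 49.6 FPKM in G. In each, 1 G library lay far below the other 5. VEGFA, the angiogenic factor, had ENST00000497139 at 60.6, 58.8 and 58.1 FPKM in A and 65.9, 67.1 and 68.0 FPKM in G (adjusted p = 0.62, limma-trend), without overlap. Its shares were 57.1% to 64.1% and 60.1% to 61.0%, with overlap. EGFR and MAPK genes held 14 members in 7 of 43 tested genes (16.3%), with a median of -0.02. MAPK3, which encodes the kinase ERK1, had ENST00000485579 at 29.2, 27.3 and 26.8 FPKM in A and 21.8, 23.2 and 22.3 FPKM in G (adjusted p = 0.543, limma-trend), and the share was 27.1% to 28.6% in A and 22.5% to 22.9% in G. The groups overlapped in neither level nor share.

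Hypoxia and glycolysis genes held 65 members in 24 of 42 tested genes and had the highest level median of the lists, 0.30, with 46 positive. Without overlap, 15 were higher (23.1%) and 1 lower (1.54%), where all tested transcripts had 9.59% and 6.40%. Their median share change was 0.07, against 0.08 for all members. Epithelial and lung lineage genes held 21 members with a median of 0.21, and KRT18 and KRT8 models overlapped between the alleles. At the gene level 12 of 18 epithelial and lung markers reached 1 FPKM in at least 3 libraries, and the 18 summed to 2907 to 3630 FPKM per library. Those that did not were NKX2-1, NAPSA, FOXA2, SFTPA1, SFTPB and SFTPC. Of 15 leukocyte, endothelial and fibroblast markers 2 reached that limit, CD68 at 35.9 to 48.7 FPKM and COL1A1 at 1.63 to 2.25 FPKM. The 15 summed to 39.5 to 52.5 FPKM per library, and DCN, a fibroblast marker, was listed at 0.

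**Figure D5:**
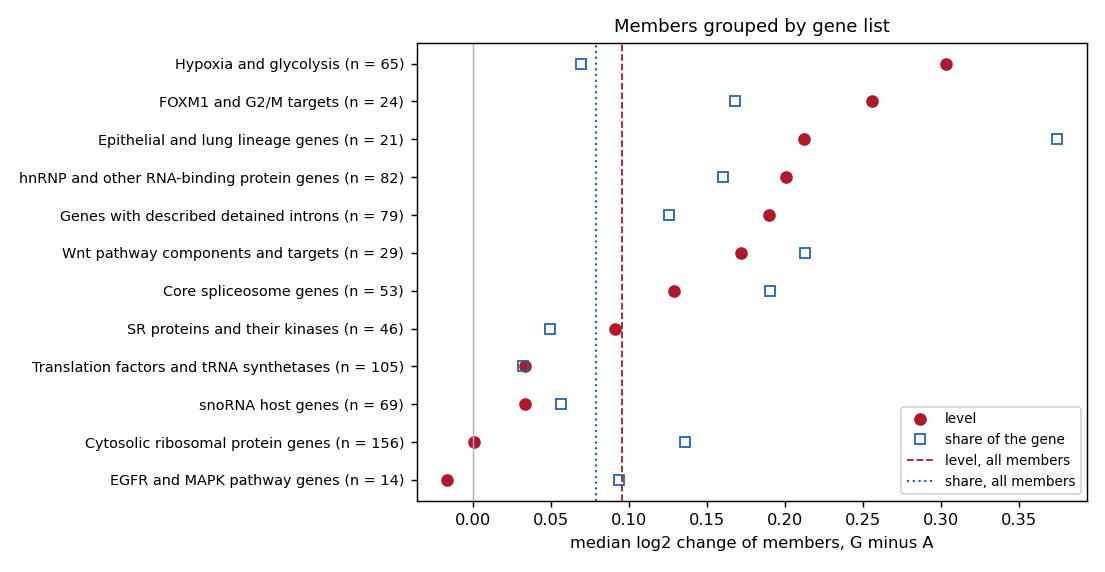
Median log2 change, G minus A (x axis), in level (filled) and share of the gene (open) for the members in each of 12 gene lists, with the number of members. Dashed and dotted lines give the medians of all members, 0.10 and 0.08. Hypoxia and glycolysis members have a level median of 0.30 and a share median of 0.07.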

How the data were processed

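Gene and transcript tables of 6 poly(A) RNA libraries were used as deposited. The tools listed are StringTie 1.3.4d, HISAT2 2.0.4 and cutadapt 1.9, per the submitters' processing notes, which give them no role. The notes name a mouse build, while the features are human Ensembl transcripts, and 5383 of 5395 members had their position and strand in GENCODE 29 (GRCh38). No source used here gives the annotation release or strand setting. Per the file headers the values are FPKM, and the deposited 0.0001 for no estimate was taken as 0. The authors' deposited table also gives a log2 fold change, a p-value, a q-value and a mark of significance per transcript.

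Low values lay on a common read step in only 26.2% to 34.8% of cases (tolerance 0.02), so whole reads were not recovered, the depth is unknown and no count model was used. Levels were tested as log2(FPKM + 1) with limma 3.58.1 and an intensity trend (R 4.3.3) on all 29990 transcripts, with Benjamini-Hochberg adjustment and a threshold of 0.05. Shares were tested as log2((T + 1)/(R + 1)), T being the transcript and R the rest of its gene, and per gene in the same way for the summed retained-intron transcripts. The pseudocount of 1 understates changes of low transcripts. The percent of a library was compared with an exact permutation test.

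A whole retained intron is a coding intron of at least 30 bases of the same gene that lies inside an exon of the member with at least 3 exon bases on each side. Members were named by rule: calls, filled to 5 per direction by smallest p with non-overlapping groups, the 8 highest by level and by share, the 3 highest of each list, the 3 on either side of the limit and the genes with most members. The members of OGT, MAT2A and CLK1 were not named by this rule but added after their values were seen. The members and lists were chosen with earlier results of these data known. Alternatives changed the pseudocount, filter, scaling, trend, length weighting, replicate block and set of libraries. Python 3.11.15 and pandas 2.3.3 read the tables.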

Additional observations from a re-analysis of the deposited data

How the results depend on the processing

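The count of called members was 4 in level and fell to 1 with a pseudocount of 0.1 and to 0 with a pseudocount of 0.01, with no filter on low values and with a filter of 5 FPKM. It ranged from 0 to 3 when each library was left out in turn, and none of the 4 calls was kept. Without A replicate 1 models of DYNC1H1 and MLX were among those called, without A replicate 2 1 of AC118754 and without G replicate 2 that of LTBP4, while 0 were called without A replicate 3, G replicate 1 or G replicate 3. In share the count was 0 with shares in percent, 0 with a filter on a mean of 1 FPKM and 0 to 0 without each library. With the replicate block the counts were 0 in level and 0 in share. Same-numbered libraries did not deviate together (r of -0.0016, 0.0048 and 0.015 in level). This cannot show whether the numbers pair samples, which the labels do not state. The summed share per gene gave 2 calls with length weighting (ESS2 and YY1), 1 without a trend (ESS2) and 0 to 3 without each library, the 3 being GPATCH8, LMBRD1 and SMC4 without G replicate 3. The cause of these changes was not tested, except that fewer libraries leave fewer degrees of freedom. The median level change of members stayed positive, from 0.06 to 0.15, and the median-ratio scaling moved it to 0.07 with all transcripts at 0.00. The library percent of retained-intron FPKM was higher in G in every alternative run, by 0.557 to 1.33 points.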
